A study of Mus musculus with 12 samples.

Results

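Thymocytes without CD4 and CD8 on their surface, the double-negative or DN cells, pass through the stages DN1, DN2 and DN3 before they become αβ or γδ T cells. These 3 stages were sorted together from the thymus of adult C57BL/6J mice, either WT or GFI1 KO, and the comparison of KO with WT in this sort is described here across all genes and by gene function. The cells belong to 4 of the 12 demultiplexed libraries of the series, called WT 1, WT 2, KO 1 and KO 2 below. Cells entered with 500 or more transcripts counted by molecular identifiers (UMIs), 200 or more detected genes and no more than 20% of UMIs from mitochondrial genes, which gave 29230 DN1-DN3 cells of 96911 cells in the whole series. WT 1 and WT 2 held 7207 and 7476 cells, and KO 1 and KO 2 held 6990 and 7557 cells. WT cells carried one hashtag antibody and KO cells another, and WT and KO cells with the same replicate number were mixed and run as 1 droplet pool. Before the sort, B cells, myeloid cells, NK cells and a part of the CD8+ cells had been removed with magnetic beads. How many mice contributed to a library and which exons the KO allele lacks are not given in the sources used here. The p-values below therefore measure only the spread between libraries. For the whole sort that spread was estimated over all 12 libraries, those of γδ T cells included. The study's text calls its GFI1 KO mice germline KO, apart from its mice with a Cre-driven deletion.

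GFI1 is a zinc finger protein that binds DNA at sites with the core AATC and represses transcription by bringing histone demethylase and deacetylase complexes to its target genes. DN1 and DN2 cells are recent immigrants with a Kit-dependent progenitor program, and under Notch signals they switch on T-lineage factors such as Tcf7, Gata3 and Bcl11b. DN3 cells recombine the T cell receptor (TCR) genes with RAG proteins and carry the pre-TCR α chain Ptcra and the IL-2 receptor α chain Il2ra, and most γδ T cells branch off at DN2 and DN3.

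The DN1-DN3 libraries held between 46658394 UMIs in KO 1 and 62299725 UMIs in WT 2, with medians of 5590.5 to 6231 UMIs per cell, and no barcode was shared between the WT and KO cells of a pool. Gfi1 RNA, the gene of the KO, stood at 44.7 and 40.6 CPM in WT 1 and WT 2 and 70.6 and 56.6 CPM in KO 1 and KO 2, a log2 difference of 0.57 (edgeR adjusted p = 0.058), so neither library labelled KO had less of this RNA than WT. DESeq2 called this rise, with an adjusted p of 0.0298. Reads of the 3' end that fall outside a deleted part check nothing, and the genotype is therefore given as labelled. Markers of DN cells were present in every library, with Ptcra at 102 and 126 CPM in WT 1 and WT 2 and 95.4 and 168 CPM in KO 1 and KO 2 (CPM, counts per 1000000 UMIs of a library) and Kit between 16.2 and 29.4 CPM. The 27 B-lineage markers in the files summed to 207 and 422 CPM in WT 1 and WT 2 and to 2501 and 5097 CPM in KO 1 and KO 2, and all 394 immunoglobulin genes to 173 and 385 CPM in WT and to 2477 and 5084 CPM in KO. Markers of innate lymphoid and NK cells summed to 188 and 177 CPM in WT and to 782 and 402 CPM in KO 1 and KO 2. The Y-linked gene Ddx3y was lower in the libraries labelled KO (log2 difference -1.05 ± 0.18 SE, edgeR adjusted p = 0.00273), while the difference in Xist was 0.14 with an adjusted p of 0.763 in edgeR. A run without the cells of the B gate described below called 3297 genes in the whole sort, in place of 3427. Apart from that run, the part of these differences in the results below was not tested.

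Gene expression of DN1-DN3 cells differed widely between KO and WT, and the rises were larger than the falls. At mean levels of 20 CPM or more, and apart from immunoglobulin genes, Y-linked genes and Xist, the largest rises included the costimulatory receptor Icos, the chemokine receptor Ccr2, the NK-type receptor Klra5, the junctional adhesion molecule Jaml and the interferon-induced membrane protein Ifitm1. At the same levels the largest falls included the calcium channel subunit Cacnb2, the thyroid hormone receptor Thrb, the cell cycle inhibitor Cdkn1a and the thymus-homing receptor Ccr9. Of 14924 genes tested, 2274 were higher in KO (15.2%) and 1153 were lower (7.73%) at an adjusted p below 0.05 in edgeR's quasi-likelihood test. These counts depended on each library: 1679 genes were called without WT 1, 1931 without WT 2, 1961 without KO 1 and 5041 without KO 2. A lower level can mean fewer cells of a type or less RNA per cell, and sums over libraries cannot tell these apart.

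Cacnb2, Tshz2 and Cdkn1a fell to similar levels in both libraries labelled KO. Cacnb2 stood at 54.4 and 38.9 CPM in WT 1 and WT 2 and 4.48 and 4.83 CPM in KO 1 and KO 2 (log2 difference -3.31 ± 0.26 SE, edgeR adjusted p = 4.34e-05). Tshz2, a zinc finger factor, stood at 121 and 123 CPM in WT 1 and WT 2 and 29.0 and 23.1 CPM in KO 1 and KO 2 (log2 difference -2.24 ± 0.17 SE, edgeR adjusted p = 3.48e-05). Cdkn1a, which encodes the CDK inhibitor p21, stood at 38.2 and 41.3 CPM in WT 1 and WT 2 and 8.72 and 9.77 CPM in KO 1 and KO 2 (log2 difference -2.10 ± 0.26 SE, edgeR adjusted p = 0.000524). In each of these genes both WT libraries lay far above both KO libraries, and KO 1 and KO 2 were close to each other. Thrb fell from 45.3 and 29.8 CPM to 6.54 and 3.48 CPM (log2 difference -2.92 ± 0.39 SE, edgeR adjusted p = 0.000776), and Med12l fell by 1.79 on the log2 scale. Lypd6b, a member of the Ly6 family, fell by 1.41 and Ccr9 by 1.44 on the log2 scale. Angpt1 (log2 -1.70), Ly6d (-1.51), Slc8a1 (-1.47) and the noncoding transcript Dgkeos (-1.38) were also among the 12 largest falls of genes with at least 20 CPM, and each of these 4 missed the threshold when 1 library was left out: Angpt1 without KO 1, Ly6d and Dgkeos without KO 1 or WT 2, and Slc8a1 without any of the 4.

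Most of the largest rises were unequal between the libraries labelled KO. Icos was measured at 18.1 and 18.6 CPM in WT 1 and WT 2 and 405 and 131 CPM in KO 1 and KO 2 (log2 difference 3.84 ± 0.39 SE, edgeR adjusted p = 0.000179). Ccr2 was measured at 5.57 and 6.48 CPM in WT 1 and WT 2 and 141 and 45.2 CPM in KO 1 and KO 2 (log2 difference 3.92 ± 0.43 SE, edgeR adjusted p = 0.00028). Adam19, a membrane protease, was measured at 5.89 and 4.91 CPM in WT 1 and WT 2 and 138 and 53.4 CPM in KO 1 and KO 2 (log2 difference 4.13 ± 0.35 SE, edgeR adjusted p = 7.05e-05). Both KO libraries lay above both WT libraries in each case, and KO 1 was more than 2 times KO 2. Jaml rose by 4.45, Klra5 by 4.17, the magnesium channel Trpm6 by 4.36, Abi3bp by 4.32, the cadherin Cdh10 by 4.53, Acsbg1 by 4.66 and the noncoding transcript A330093E20Rik by 5.20 on the log2 scale, all with KO 1 above KO 2. Ifitm1 had the opposite order, with 8.49 and 7.30 CPM in WT 1 and WT 2 and 124 and 168 CPM in KO 1 and KO 2 (log2 difference 4.22 ± 0.73 SE, edgeR adjusted p = 0.00395). Slpi, a secreted protease inhibitor, was called in all cells (log2 difference 4.45 ± 0.97 SE, edgeR adjusted p = 0.0121) but stood at a log2 difference of -0.065 without the cells of the B gate, which had 2 or more of 6 B-lineage genes detected, and it also missed the threshold without KO 1. Of the 2274 genes higher in KO, 1993 were higher in KO 1 than in KO 2, and 1128 (49.6%) were more than 1.5 times higher there.

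**Figure D1:**
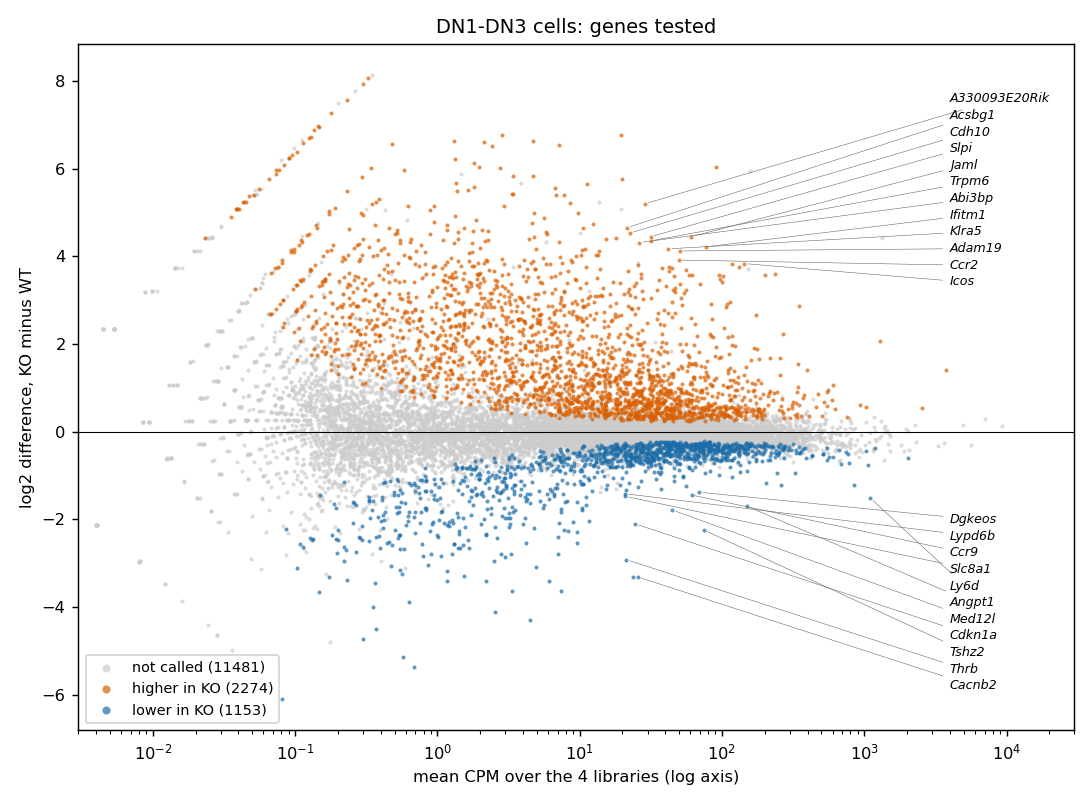
Log2 difference between KO and WT (y axis) against the mean CPM over the 4 DN1-DN3 libraries (x axis, log scale) for the genes tested that had a UMI in these libraries; orange genes were higher and blue genes lower in KO at an adjusted p below 0.05, and genes of the text among the 12 largest rises and falls with at least 20 CPM are named. The 2274 orange genes reach larger differences than the 1153 blue ones, and the named falls end at the -3.31 of Cacnb2.

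Upstream sequences are shown for 3 genes called in the whole sort, in its DN3-type cells and in the remaining cells, with the core that GFI1 binds marked in them. Each run holds the 250 bases before a RefSeq gene start on assembly GRCm38.p6, 5′ to 3′ on the strand of the gene, with every AATC, or GATT where it lies on the other strand, in capitals. Rasgrp3 (chr17:75435655-75435904, plus strand) and Ifitm1 (chr7:140967826-140968075, plus strand) rose in KO, and Cdkn1a (chr17:29090729-29090978, plus strand) fell.
Rasgrp3: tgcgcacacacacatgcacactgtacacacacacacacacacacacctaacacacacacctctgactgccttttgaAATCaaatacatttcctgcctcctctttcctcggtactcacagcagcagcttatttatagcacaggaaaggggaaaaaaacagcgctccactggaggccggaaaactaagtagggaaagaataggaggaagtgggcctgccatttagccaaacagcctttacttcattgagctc
Ifitm1: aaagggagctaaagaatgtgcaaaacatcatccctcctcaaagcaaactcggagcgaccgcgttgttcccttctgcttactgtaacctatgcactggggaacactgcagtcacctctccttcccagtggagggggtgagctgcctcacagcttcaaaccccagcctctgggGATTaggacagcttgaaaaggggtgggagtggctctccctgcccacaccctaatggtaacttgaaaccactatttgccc
Cdkn1a: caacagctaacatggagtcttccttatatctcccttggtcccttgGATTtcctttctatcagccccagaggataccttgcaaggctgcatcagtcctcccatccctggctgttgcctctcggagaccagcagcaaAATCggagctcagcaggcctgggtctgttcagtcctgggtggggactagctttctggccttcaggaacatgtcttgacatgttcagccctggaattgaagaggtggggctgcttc
The windows shown of Rasgrp3 and Ifitm1 hold 1 core each and that of Cdkn1a holds 2. Rasgrp3 and Cdkn1a have 2 windows each, of which 1 is shown, and Ifitm1 has 1. The core is short and stands in 69.0% of all 32851 windows of this length, in 12 of the 15 windows of the named genes that rose (12 of 17 such genes matched the table) and in 8 of the 12 windows of those that fell (9 of 14 matched). A match describes letters and is not a binding site.

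Among the T-lineage commitment and Notch genes a few rose clearly. Of 22 tested, 6 were higher and 1 was lower (27.3% and 4.55%, beside 15.2% and 7.73% of all genes), with a median log2 difference of -0.041 beside -0.019 over all genes tested. Cd7, a surface protein of early T and NK cells, stood at 9.68 and 9.47 CPM in WT 1 and WT 2 and 136 and 92.6 CPM in KO 1 and KO 2 (log2 difference 3.57 ± 0.17 SE, edgeR adjusted p = 1.77e-06). The Ikaros family member Ikzf2 (Helios) rose by 0.91, Ikzf3 (Aiolos) by 1.73 and Runx3 by 1.26 on the log2 scale. Gata3 (0.41) and the Notch target Dtx1 (0.93) were called too, but Gata3 lost the call without WT 1 or WT 2, and Dtx1 without KO 2, WT 1 or WT 2. The commitment factor Bcl11b was the member called lower, at 1428 and 1270.2 CPM in WT 1 and WT 2 and 1007 and 1062 CPM in KO 1 and KO 2, and lost the call without KO 1, WT 1 or WT 2. Tcf7 had a log2 difference of -0.39 (edgeR adjusted p = 0.0574), Lef1 of -0.49 (0.0686) and Notch1 of -0.093 (0.64). Without KO 2, 6 members were lower. With the pool as a block in edgeR, 3 members were lower, and Tcf7 and Lef1 passed the threshold (adjusted p = 0.0147 and 0.0264).

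Of 6 genes for E proteins and for the Id proteins that keep them from DNA, 2 were higher in KO, Id2 and Id1. None was lower in the whole sort. The share higher was 33.3%, beside 15.2% of all genes. Id2 stood at 47.0 and 46.3 CPM in WT 1 and WT 2 and 425 and 171 CPM in KO 1 and KO 2 (log2 difference 2.65 ± 0.33 SE, edgeR adjusted p = 0.000529). Id1 stood at only 0.453 and 0.610 CPM in WT 1 and WT 2 and 2.16 and 3.77 CPM in KO 1 and KO 2 (log2 difference 2.49 ± 0.43 SE, edgeR adjusted p = 0.0025). Id3 was measured at 73.2 and 79.6 CPM in WT 1 and WT 2 and 89.0 and 124 CPM in KO 1 and KO 2, a log2 difference of 0.49 (edgeR adjusted p = 0.168). Both KO libraries lay above both WT libraries for Id2, Id1 and Id3, and Id2 was again higher in KO 1 than in KO 2. The E protein genes Tcf3, Tcf12 and Tcf4 had log2 differences of -0.32, 0.11 and 0.27 and passed no threshold, although Tcf3 was called lower with the pool as a block (edgeR adjusted p = 0.0359).

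Genes of TCR gene recombination and the pre-TCR were called about as often as all genes in the whole sort (15.2% higher and 7.73% lower). The list also held Sox13, a γδ T cell factor that is counted in the γδT17 list below too. Of 16 tested, 2 were higher, the CD3 chain Cd3d and the factor Sox13, and 1 was lower, the DNA end-joining factor Xrcc6, and none of the 3 calls held when WT 1 was left out. Rag1 was measured at 203 and 216 CPM in WT 1 and WT 2 and 224 and 318 CPM in KO 1 and KO 2 (log2 difference 0.38, edgeR adjusted p = 0.347). Ptcra was measured at 102 and 126 CPM in WT 1 and WT 2 and 95.4 and 168 CPM in KO 1 and KO 2 (log2 difference 0.22, edgeR adjusted p = 0.678). For both genes KO 2 was above both WT libraries, and KO 1 was just above them for Rag1 and below them for Ptcra. The number higher was 0 without WT 1 and 1 without WT 2 or without KO 2, and the number lower was 0 without KO 1, WT 1 or WT 2 and 2 without KO 2. With the 4 DN1-DN3 libraries fitted alone none was called, with DESeq2 3 were lower, and with the pool as a block 1 was higher and 2 were lower and Sox13 had an edgeR adjusted p of 0.0806.

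Among TCR signalling genes, 8 of 27 were higher and 2 were lower (29.6% and 7.41%, beside 15.2% and 7.73% of all genes). The kinases Txk (log2 1.99), Zap70 (1.33), Fyn (1.13) and Prkcq (1.09) rose. Themis, which tunes TCR signals in thymocytes, fell from 1305 and 1083 CPM to 540.1 and 485 CPM (log2 difference -1.22 ± 0.11 SE, edgeR adjusted p = 8.39e-05), and the phosphatase Ubash3a fell by 0.73 on the log2 scale. All 6 of these calls held without any single library, but the number of members called higher was 4 without WT 1, 5 without WT 2 or without KO 1, 14 without KO 2 and 4 with the 4 DN1-DN3 libraries fitted alone. Of the 8 that were higher, 6 were more than 1.5 times higher in KO 1 than in KO 2.

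The γ chain constant genes fell while the α chain constant gene rose. Trgc4 stood at 194 and 195 CPM in WT 1 and WT 2 and 126 and 85.9 CPM in KO 1 and KO 2 (log2 difference -0.89 ± 0.18 SE, edgeR adjusted p = 0.00584), and Trgc3 fell by 1.58 on the log2 scale from low levels. Trgc1 (-0.41) lost its call without WT 2, and Trgc2 (-0.52) without KO 1, WT 1 or WT 2, and without WT 2, or with the 4 DN1-DN3 libraries fitted alone, the number lower was 2. Trac, the constant gene of the TCR α chain, stood at 18.8 and 20.7 CPM in WT 1 and WT 2 and 154 and 65.6 CPM in KO 1 and KO 2 (log2 difference 2.45 ± 0.32 SE, edgeR adjusted p = 0.000655), so both KO libraries were above WT and KO 1 was the highest. Of 11 variable genes of the γ and δ chains, 4 were higher (36.4%, beside 15.2% of all genes) and none was lower. Trgv6 stood at 0.566 and 0.449 CPM in WT 1 and WT 2 and 2.29 and 1.81 CPM in KO 1 and KO 2 (log2 difference 2.00 ± 0.18 SE, edgeR adjusted p = 6.77e-05). Trgv6 and Trdv4 (log2 2.57) held the call without any single library. Trgv4 (0.63) lost it without KO 1, WT 1 or WT 2, and Trgv5 (2.45) without KO 1 or WT 1. Trgv6 and Trdv4 are the segments of the γδT17 cells made before birth, and at these levels few transcripts stand behind them. The variable and constant γ genes resemble each other in sequence, so reads may have been split among them.

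**Figure D2:**
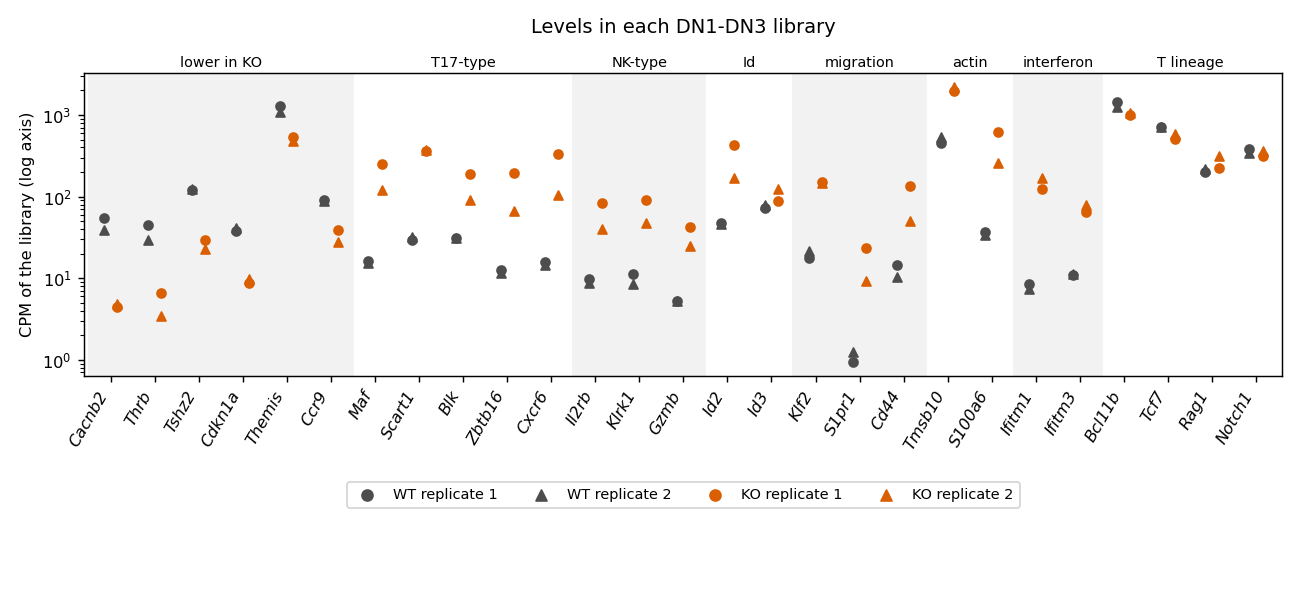
CPM of selected genes (log axis) in each of the 4 DN1-DN3 libraries, with WT in grey, KO in orange, circles for replicate 1 and triangles for replicate 2. Cdkn1a and Tshz2 lie lower in KO with both KO libraries together, Scart1, Klf2 and Tmsb10 lie higher with both together, and Cxcr6, Id2 and S100a6 lie higher with KO 1 above KO 2.

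The γδT17 program rose almost as a whole. γδT17 cells are γδ T cells set to make IL-17, under factors such as Maf, Sox13 and Zbtb16. Of 29 members tested, 26 were higher and none was lower, with a median log2 difference of 3.28, and between 21 and 24 were higher when 1 library was left out. The share higher was 89.7%, beside 15.2% of all genes. Maf stood at 16.5 and 15.2 CPM in WT 1 and WT 2 and 253 and 121 CPM in KO 1 and KO 2 (log2 difference 3.55 ± 0.29 SE, edgeR adjusted p = 5.4e-05). Scart1, a scavenger receptor of γδT17 cells, stood at 29.2 and 32.4 CPM in WT 1 and WT 2 and 367 and 375 CPM in KO 1 and KO 2 (log2 difference 3.59 ± 0.15 SE, edgeR adjusted p = 6.35e-07). Blk, a Src family kinase of these cells, stood at 30.9 and 30.8 CPM in WT 1 and WT 2 and 190.1 and 91.6 CPM in KO 1 and KO 2 (log2 difference 2.17 ± 0.26 SE, edgeR adjusted p = 0.000417). All 3 genes were higher in both KO libraries than in either WT library; Scart1 was nearly equal in KO 1 and KO 2, and Maf and Blk were higher in KO 1.

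Further members of the program followed the unequal order of the KO libraries. Zbtb16 (PLZF, log2 3.38), the chemokine receptors Cxcr6 (3.83) and Ccr6 (4.14), the cytokine receptors Il23r (3.28) and Il1r1 (3.56), Gpr183 (3.17) and Rora (3.38) rose, and of the 26 members that were higher, 23 were more than 1.5 times higher in KO 1 than in KO 2. Il17a stood at 0.0647 and 0.0321 CPM in WT 1 and WT 2 and 8.51 and 2.83 CPM in KO 1 and KO 2 (log2 difference 6.77 ± 0.75 SE, edgeR adjusted p = 0.000277), so nearly all of its transcripts came from the KO libraries, with KO 1 the higher. Sox13 (0.63) and Etv5 (0.69), which act early in this lineage, moved less; Sox13 lost the call without KO 2, WT 1 or WT 2, and Etv5 without any of the 4. Sox4 (-0.21) and Ramp1 (-0.14) were not called.

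Type 1 and cytotoxic genes, shared by NK cells and killer T cells, rose with them. Of 27 tested, 20 were higher and 1 was lower, with a median log2 difference of 2.19, and 13 were higher without KO 1. The shares higher and lower were 74.1% and 3.70%, beside 15.2% and 7.73% of all genes. The IL-2 and IL-15 receptor chain Il2rb stood at 9.74 and 8.84 CPM in WT 1 and WT 2 and 83.4 and 40.6 CPM in KO 1 and KO 2 (log2 difference 2.72 ± 0.25 SE, edgeR adjusted p = 9.5e-05). The NK receptor Klrk1 stood at 11.3 and 8.49 CPM in WT 1 and WT 2 and 89.9 and 46.9 CPM in KO 1 and KO 2 (log2 difference 2.77 ± 0.24 SE, edgeR adjusted p = 7.05e-05). The granule protease Gzmb stood at 5.23 and 5.30 CPM in WT 1 and WT 2 and 42.6 and 24.9 CPM in KO 1 and KO 2 (log2 difference 2.67 ± 0.22 SE, edgeR adjusted p = 5.68e-05). In all 3, both KO libraries exceeded both WT libraries and KO 1 was the highest. Perforin (Prf1, log2 3.03), the chemokines Xcl1 (3.06) and Ccl5 (2.19), Klrc2 (3.15) and Ncr1 (4.04) were higher too, and the chemokine Ccl4 fell by 1.29 on the log2 scale. Tbx21 (2.29) lost its call without KO 1, WT 1 or WT 2, and Eomes (1.76) without KO 2, WT 1 or WT 2. Ifng was measured at 0.243 and 0.209 CPM in WT 1 and WT 2 and 1.22 and 0.818 CPM in KO 1 and KO 2 (edgeR adjusted p = 0.062) and Gzma at 300.2 and 356 CPM in WT 1 and WT 2 and 498 and 603 CPM in KO 1 and KO 2 (0.118, and 0.00432 with the pool as a block). Of the 16 innate lymphoid and NK markers tested, 10 were higher and none was lower, 5 without WT 1 and 6 without WT 2. The 10 higher were 62.5%, beside 15.2% of all genes. The part of these markers in the rise of the list was not tested.

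Type 2 and innate-like T cell genes were called higher in 8 of 13 and lower in none, with 5 without WT 1 or without WT 2. The share higher was 61.5%, beside 15.2% of all genes. Icos, Zbtb16, the costimulator Cd226 (log2 3.50), the CD40 ligand Cd40lg (3.39) and lymphotoxin β (Ltb, 1.99) rose. Il4 stood at 1.46 and 1.96 CPM in WT 1 and WT 2 and 12.3 and 4.69 CPM in KO 1 and KO 2 and lost its call without KO 1, WT 1 or WT 2. Checkpoint receptors were higher in 7 of 13, among them Btla (2.65 and 2.54 CPM in WT 1 and WT 2 and 13.7 and 12.1 CPM in KO 1 and KO 2; log2 difference 2.31 ± 0.14 SE, edgeR adjusted p = 9.21e-06), Havcr2 (log2 3.30), Vsir (2.00) and Pdcd1 (1.16), and Cd200 was lower (-1.35), but not when WT 1 was left out. Btla was nearly equal in KO 1 and KO 2, and the other 3 named rises were higher in KO 1. Of the checkpoint receptors 53.8% were higher and 7.69% lower, beside 15.2% and 7.73% of all genes.

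Cytokine receptor genes were higher in 15 of 25 and lower in 1 (60% and 4%, beside 15.2% and 7.73% of all genes). The IL-7 receptor, on which DN2 and DN3 cells depend for survival, stood at 239 and 193 CPM in WT 1 and WT 2 and 778 and 379 CPM in KO 1 and KO 2 (log2 difference 1.41 ± 0.25 SE, edgeR adjusted p = 0.003). The IL-18 receptor chain Il18r1 stood at 16.9 and 11.9 CPM in WT 1 and WT 2 and 271 and 79.5 CPM in KO 1 and KO 2 (log2 difference 3.58 ± 0.45 SE, edgeR adjusted p = 0.000517). Both were highest in KO 1. In the DN3-type cells described further on, Il7r stood at 192 and 154 CPM in WT 1 and WT 2 and 224 and 168 CPM in KO 1 and KO 2. In the Il2rb-positive cells described there it stood at 1134 and 958 CPM in WT and 1553 and 1333 CPM in KO. Outside all gates it stood at 224 and 178 CPM in WT and 712 and 357 CPM in KO. The part of each gate in the rise of the whole sort was not tested. The common γ chain Il2rg (log2 0.95), Tgfbr2 (1.50) and Il6ra (3.57) rose as well, whereas Tgfbr1 was lower (-0.35) and lost the call without KO 1 or WT 1. Of 16 STAT and SOCS genes downstream of these receptors, 5 were higher and 1 was lower (31.25% and 6.25%, beside 15.2% and 7.73% of all genes). The higher ones included Pim2 (1.51), Socs2 (0.90), Cish (1.20, not without WT 2) and Jak1 (0.42, not without KO 1, WT 1 or WT 2). Stat5a was the only one of the 16 called lower (-0.34), again not without KO 1, WT 1 or WT 2. The list held 8 higher genes without KO 2 and 3 without WT 2.

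Genes for chemokine receptors and exit from the thymus were higher in 19 of 21, with a median log2 difference of 2.72, and lower in 1. The shares were 90.5% and 4.76%, beside 15.2% and 7.73% of all genes. Klf2, the factor that drives S1pr1 before T cells leave the thymus, stood at 17.5 and 21.4 CPM in WT 1 and WT 2 and 151 and 145 CPM in KO 1 and KO 2 (log2 difference 2.92 ± 0.19 SE, edgeR adjusted p = 1.31e-05). S1pr1, the sphingosine phosphate receptor needed for exit, stood at 0.938 and 1.24 CPM in WT 1 and WT 2 and 23.6 and 9.24 CPM in KO 1 and KO 2 (log2 difference 3.88 ± 0.43 SE, edgeR adjusted p = 0.000288). Ccr9, which holds precursors in the thymus, was the gene that fell, with 90.6 and 87.8 CPM in WT 1 and WT 2 and 38.5 and 27.6 CPM in KO 1 and KO 2 (log2 difference -1.44 ± 0.17 SE, edgeR adjusted p = 0.000331). For Klf2, KO 1 and KO 2 were nearly equal, for S1pr1 KO 1 was the higher, and for Ccr9 both KO libraries lay below both WT libraries. Foxo1, an activator of Klf2, rose by 1.55, Ccr7 by 2.84, Gpr183 by 3.17 and Ccr8 by 4.87 on the log2 scale, and between 14 and 17 of the 21 were higher when 1 library was left out. Cxcr4 had a log2 difference of -0.17 (edgeR adjusted p = 0.331).

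Adhesion and cytoskeleton genes of activated or resident lymphocytes rose with the egress genes. Integrins and adhesion molecules were higher in 13 of 20 and lower in 1, which is Ly6d (65% and 5%). S100, annexin and actin-linked genes were higher in 23 of 26 (88.5%) and lower in none. Of all genes, 15.2% were higher and 7.73% lower. Tmsb10, an actin-binding thymosin, stood at 458 and 542 CPM in WT 1 and WT 2 and 1962 and 2227 CPM in KO 1 and KO 2 (log2 difference 2.07 ± 0.16 SE, edgeR adjusted p = 2.86e-05). S100a6, a calcium-binding protein of resting and memory lymphocytes, stood at 36.6 and 33.5 CPM in WT 1 and WT 2 and 612 and 257 CPM in KO 1 and KO 2 (log2 difference 3.61 ± 0.34 SE, edgeR adjusted p = 0.000119). Cd44, which is lost on the way to DN3, stood at 14.4 and 10.3 CPM in WT 1 and WT 2 and 136 and 49.8 CPM in KO 1 and KO 2 (log2 difference 2.89 ± 0.38 SE, edgeR adjusted p = 0.000669). Both KO libraries were above WT in all 3, with KO 2 slightly the higher for Tmsb10 and KO 1 clearly the higher for S100a6 and Cd44. The epithelium-binding integrins Itgae (log2 3.43) and Itgb7 (3.23), Vim (1.95), Capg (2.86) and Cd52 (2.87) rose too.

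Interferon-stimulated genes were higher in 24 of 35 and lower in none, with a median log2 difference of 0.87; 12 were higher without WT 1 and 14 without KO 1. Ifitm3, a membrane protein against virus entry, stood at 10.9 and 11.3 CPM in WT 1 and WT 2 and 65.3 and 78.8 CPM in KO 1 and KO 2 (log2 difference 2.70 ± 0.22 SE, edgeR adjusted p = 4.53e-05), and both KO libraries were well above WT with KO 2 the higher. Of the interferon list 68.6% was higher, beside 15.2% of all genes. The induced genes Ifi27l2a (log2 2.38), Ifi206 (2.25), Irf7 (1.60), Zbp1 (1.37) and the class I gene H2-K1 (1.07) rose. Bst2 (0.0021) and Psmb8 (-0.028), which interferon also induces, were not called.

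Of 11 MHC class II genes, 6 were higher (54.5%, beside 15.2% of all genes) and none was lower. The invariant chain Cd74 stood at 5.32 and 5.44 CPM in WT 1 and WT 2 and 32.2 and 66.6 CPM in KO 1 and KO 2 (log2 difference 3.22 ± 0.48 SE, edgeR adjusted p = 0.00133), with KO 2 the highest, which was also the order of the B-lineage markers. The protease Ctss stood at 5.65 and 5.91 CPM in WT 1 and WT 2 and 96.9 and 61.7 CPM in KO 1 and KO 2 (log2 difference 3.76 ± 0.20 SE, edgeR adjusted p = 5.7e-06), and H2-Oa at 3.25 and 3.35 CPM in WT 1 and WT 2 and 13.1 and 13.9 CPM in KO 1 and KO 2 (log2 difference 2.03 ± 0.17 SE, edgeR adjusted p = 4.37e-05); for Ctss KO 1 was the highest, and H2-Oa was nearly equal in KO 1 and KO 2. Apart from the runs without the cells of the B gate, the part of B cells in the rise of Cd74 was not tested. In the DN3-type cells described further on, the cells of the B gate were left out. Cd74 had a log2 difference of 0.29 there (edgeR adjusted p = 0.758), and Ctss and H2-Oa were called higher, by 4.55 and 2.98. Of the 9 class II genes tested in those cells, 2 were higher and 1 was lower, with a median log2 difference of -0.34. The shares were 22.2% and 11.1%, beside 10.3% and 6.46% of all genes tested there. In the remaining cells outside the B gate 6 of 11 were higher (54.5%, beside 12.1% of all genes tested there), with a median of 1.57. Immunoglobulin RNA was still found in those cells, as given further on.

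A part of the proliferation genes was lower in KO. Of 25 S phase genes, 12 were lower and none was higher, and of 25 G2/M genes 7 were lower and none was higher. The shares lower were 48% and 28%, beside 7.73% of all genes, and the median log2 differences were -0.56 and -0.57. The replication licensing factor Mcm4 was measured at 125 and 126 CPM in WT 1 and WT 2 and 72.6 and 93.6 CPM in KO 1 and KO 2 (log2 difference -0.59 ± 0.13 SE, edgeR adjusted p = 0.0103). The mitotic kinase Aurka was measured at 36.2 and 40.5 CPM in WT 1 and WT 2 and 19.7 and 24.5 CPM in KO 1 and KO 2 (log2 difference -0.79 ± 0.17 SE, edgeR adjusted p = 0.00799). KO 1 had the lowest level of both, and the KO libraries lay below WT. Kif20b (log2 -0.59) kept its call without any single library, while Mcm4 and Aurka lost it without WT 2. The S phase count ranged from 0 without WT 2 over 2 without WT 1 or without KO 1 to 22 without KO 2, with the pool as a block 23 S phase and 21 G2/M genes were lower, and without the 5% of cells with the most UMIs 19 and 17, whereas with the 4 DN1-DN3 libraries fitted alone 3 S phase genes were lower. The G2/M count was 1 without WT 2, 2 without WT 1 or without KO 1 and 11 without KO 2. Of 22 genes of MYC and ribosome biogenesis, 4 were lower (18.2%, beside 7.73% of all genes), among them Pa2g4 (-0.50). All 4 calls were lost without KO 1, WT 1 or WT 2, whereas many more genes were lower without KO 2. The count was 8 with the pool as a block and 0 with the 4 libraries fitted alone.

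Genes of the p53 response and CDK inhibitors went in both directions. Of 22 tested, 5 were higher and 2 lower (22.7% and 9.09%, beside 15.2% and 7.73% of all genes), and without KO 1, WT 1 or WT 2 the numbers higher were 2, 1 and 2 and the number lower was 1, as 2 and 1 were with the 4 DN1-DN3 libraries fitted alone. Pmaip1 (NOXA), a killer of the BCL2 family, stood at 1.25 and 0.931 CPM in WT 1 and WT 2 and 5.08 and 4.07 CPM in KO 1 and KO 2 (log2 difference 2.07 ± 0.16 SE, edgeR adjusted p = 2.92e-05). The p53 targets Mdm2 (0.024), Bax (-0.033) and Ccng1 (0.29) and p53 itself (Trp53, -0.18) passed no threshold. In the BCL2 family, 5 of 17 were higher and 1 lower (29.4% and 5.88%), the death agonist Bid (-0.46, not without KO 1, WT 1 or WT 2), with Bcl2a1a at 0.518 and 0.177 CPM in WT 1 and WT 2 and 23.6 and 6.66 CPM in KO 1 and KO 2 (log2 difference 5.41 ± 0.63 SE, edgeR adjusted p = 0.000367) and the near-identical copies Bcl2a1b (3.59) and Bcl2a1d (3.51), among which reads may have been split. Bcl2 stood at 382 and 265 CPM in WT 1 and WT 2 and 239.8 and 193 CPM in KO 1 and KO 2 (edgeR adjusted p = 0.118), and Mcl1 and Bcl2l11 had log2 differences of 0.19 and 0.14, also not called.

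Progenitor factors tended to be at low levels, and 4 of 19 were lower (21.1%, beside 7.73% of all genes) and none was higher. The ETS factor Erg stood at 54.2 and 38.3 CPM in WT 1 and WT 2 and 24.2 and 24.5 CPM in KO 1 and KO 2 (log2 difference -0.92 ± 0.17 SE, edgeR adjusted p = 0.00325) and kept its call without any single library. Kit, the stem cell factor receptor of DN1 and DN2 cells, stood at 29.4 and 22.3 CPM in WT 1 and WT 2 and 16.2 and 16.8 CPM in KO 1 and KO 2 (log2 difference -0.64 ± 0.15 SE, edgeR adjusted p = 0.0135) and lost its call without KO 1 or WT 1. Nfe2 (-1.58) and Cd34 (-1.58) were lower too, Nfe2 not without KO 1, WT 1 or WT 2 and Cd34 not without KO 1, KO 2 or WT 1. Only 1 member was lower without KO 1 or without WT 1, and 1 was higher without KO 2. Mef2c (0.11), Bcl11a (-0.62), Lmo2 (-0.25) and Hhex (0.75) were not called.

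AP-1 and immediate early genes, which respond to cell stimulation and to handling, were higher in 16 of 26 and lower in 2, and higher in 9 without WT 1. The falls were Ier3 (-1.17, not without KO 1 or WT 2) and Zfp36l2 (-0.35, not without KO 1, WT 1 or WT 2). Junb stood at 26.0 and 26.6 CPM in WT 1 and WT 2 and 94.5 and 49.3 CPM in KO 1 and KO 2 (log2 difference 1.43 ± 0.24 SE, edgeR adjusted p = 0.0027), with KO 1 the highest, and Klf6 (log2 1.02), Nfkbia (0.96) and Zfp36 (1.91) rose. Of the AP-1 and immediate early list 61.5% was higher and 7.69% lower, beside 15.2% and 7.73% of all genes. Whether handling took part was not tested. Glycolysis genes were higher in 3 of 23 (13.0%, beside 15.2% of all genes), with the lowest adjusted p for the glucose transporter Slc2a3 (27.1 and 21.7 CPM in WT 1 and WT 2 and 44.8 and 35.8 CPM in KO 1 and KO 2; log2 difference 0.72 ± 0.10 SE, edgeR adjusted p = 0.000972), and lower in none, although 6 were lower without KO 2, and with the pool as a block 5 were higher and 5 lower. Of 82 genes of the respiratory chain, 2 were lower (2.44%, beside 7.73% of all genes) and none was higher. These were the isoforms Cox6b2 (-1.33) and Cox6a2 (-2.35, not without WT 2). With the pool as a block 19 were lower, and many more were lower without KO 2 as well. None of the 10 genes for GFI1, GFI1B and their corepressors was called in edgeR, with Kdm1a at -0.16 and Hdac2 at -0.30. DESeq2 called Gfi1 higher, as given above. Some members were lower without KO 2, and Hdac2 alone was called with the pool as a block (edgeR adjusted p = 0.0296).

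Of the markers of other cells, 6 of 25 B-lineage genes were higher (24%, beside 15.2% of all genes), 3 without WT 1, 10 without KO 1, 11 with the 4 DN1-DN3 libraries fitted alone or without the 5% of cells with the most UMIs, 2 without the cells of the B gate and 12 with the pool as a block, and 7 of 16 (43.8%) of mature αβ T cells were higher, while Cd4 (0.518 and 0.722 CPM in WT 1 and WT 2 and 0.536 and 0.533 CPM in KO 1 and KO 2) and Cd8a (1.00 and 0.947 CPM in WT 1 and WT 2 and 0.922 and 1.30 CPM in KO 1 and KO 2) stayed near 1 CPM or below. Myeloid markers were higher in 1 of 11 (9.09%), Fcer1g (log2 difference 2.16 ± 0.24 SE, edgeR adjusted p = 0.000288), which NK cells also use, and Csf1r stayed below 1 CPM in every library. Dendritic markers were higher in 3 and lower in 2 of 11 (27.3% and 18.2%, beside 15.2% and 7.73% of all genes), of which none was higher without KO 1, WT 1 or WT 2. Erythroid markers were lower in 1 of 10 (10%) and stromal markers in 1 of 7 (14.3%), beside 7.73% of all genes. The erythroid gene was Hbb-bt, which missed the threshold without any 1 of the 4 libraries. The stromal gene was Cdh5, not called without KO 1, KO 2 or WT 2. It was not called with the pool as a block either (edgeR adjusted p = 0.0527), where 3 erythroid genes were lower. Summed over each list, the values of mature αβ T markers were 467 and 485 CPM in WT and 1004 and 630 CPM in KO 1 and KO 2, in the same order as the innate lymphoid markers and as most rises.

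**Figure D3:**
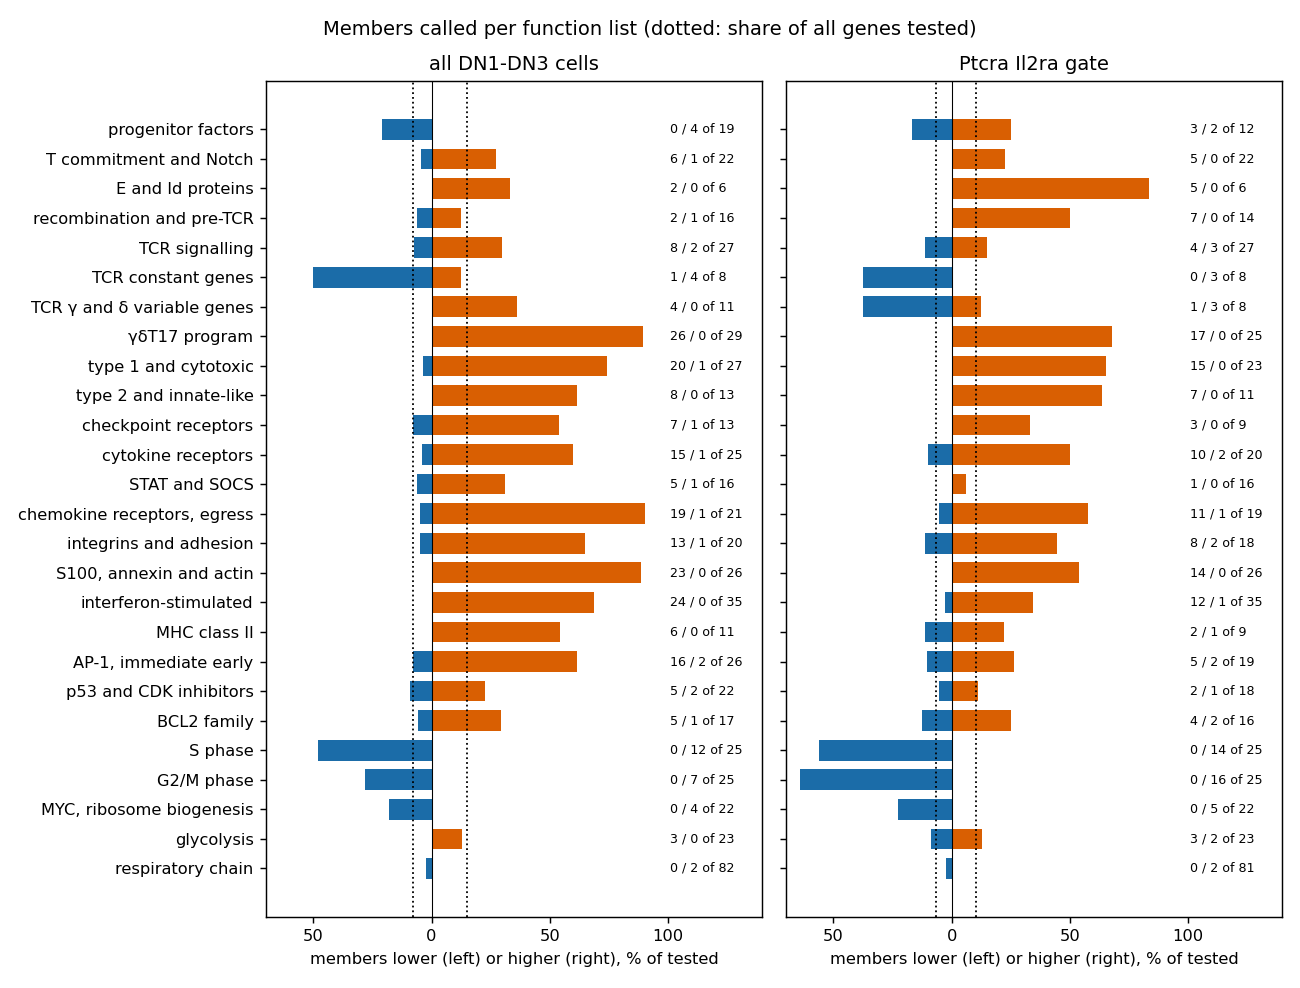
Share of the tested members of each function list that were higher (orange, to the right) or lower (blue, to the left) in KO, for all DN1-DN3 cells and for the cells with Ptcra and Il2ra; numbers give higher / lower of tested, and dotted lines give the share of all genes tested. γδT17, egress and S100 lists lie far above the 15.2% of all genes in the whole sort, and the S phase and G2/M lists extend to the left.

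Since the sort mixes stages, a subset of the cells was then examined on its own. Cells with at least 2 UMIs of Ptcra and at least 1 of Il2ra, and outside the B gate, were taken as DN3-type cells: 1475 and 1751 in WT 1 and WT 2 and 943 and 2050 in KO 1 and KO 2. Inside this gate many γδT17, cytotoxic and egress genes were higher in KO too, together with a part of the recombination genes and with Id1, Id2 and Id3, and a part of the proliferation genes was lower. Of 12194 genes tested, 1255 were higher (10.3%) and 788 were lower (6.46%) in edgeR's quasi-likelihood test, and 1925 and 1725 with the pool as a block. With only 4 libraries in this fit, the block leaves few degrees of freedom, and its calls are given as an alternative only. CPM within a gate are scaled to the UMIs of its cells in a library. Some B-lineage RNA remained in the DN3-type cells, with the immunoglobulin gene Igkc at 16.0 and 62.2 CPM in WT 1 and WT 2 and 15.4 and 65.4 CPM in KO 1 and KO 2. In the cells outside all gates Igkc stood at 26.9 and 250 CPM in WT 1 and WT 2 and 78.9 and 849 CPM in KO 1 and KO 2. Leaving out the B gate thus did not remove all B-lineage RNA from the remaining cells. The mean depth of these cells was lowest in KO 2, with 8692 UMIs, and highest in WT 1, with 10309.8 UMIs.

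The largest rises in DN3-type cells, among genes with at least 20 CPM, belonged to genes with few transcripts in WT. Rasgrp3, an exchange factor that activates RAS, stood at 0.658 and 0.494 CPM in WT 1 and WT 2 and 61.2 and 53.2 CPM in KO 1 and KO 2 (log2 difference 6.63 ± 0.17 SE, edgeR adjusted p = 1.62e-10). Chd7, a chromatin remodeller, stood at 2.63 and 0.927 CPM in WT 1 and WT 2 and 63.1 and 47.0 CPM in KO 1 and KO 2 (log2 difference 4.96 ± 0.27 SE, edgeR adjusted p = 7.87e-06). Cd7 stood at 3.35 and 2.53 CPM in WT 1 and WT 2 and 84.4 and 86.4 CPM in KO 1 and KO 2 (log2 difference 4.88 ± 0.14 SE, edgeR adjusted p = 1.62e-10). The KO libraries lay close together and far above WT in these genes. Ctss (log2 4.55), the calcium-binding protein Nucb2 (4.52) and Ifitm1 (4.62, not without WT 1 or WT 2) followed. Gfi1 itself was higher in this gate, with 53.7 and 47.3 CPM in WT 1 and WT 2 and 108 and 75.0 CPM in KO 1 and KO 2 (log2 difference 0.85 ± 0.12 SE, edgeR adjusted p = 0.000438).

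Among the falls in DN3-type cells, 4 of the 6 largest were also among the 12 largest of the whole sort at that level. Cacnb2 (-3.39), Tshz2 (-1.95), Cdkn1a (-1.67) and Med12l (-1.51) fell again, Tshz2 not with the pool as a block (edgeR adjusted p = 0.14). St8sia1, a sialyltransferase that makes gangliosides, stood at 51.4 and 46.5 CPM in WT 1 and WT 2 and 21.7 and 13.7 CPM in KO 1 and KO 2 (log2 difference -1.50 ± 0.14 SE, edgeR adjusted p = 1.42e-05), while in the remaining non-B cells its log2 difference was -0.32 and not called. Trgc4 stood at 195 and 209 CPM in WT 1 and WT 2 and 72.7 and 71.0 CPM in KO 1 and KO 2 (log2 difference -1.47 ± 0.10 SE, edgeR adjusted p = 3.42e-07). Cdkn1a stood at 68.5 and 67.3 CPM in WT 1 and WT 2 and 22.9 and 19.8 CPM in KO 1 and KO 2, so its level in the gate was higher than in the whole sort in both groups, and both KO libraries remained below both WT libraries.

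By function, some recombination genes and the Id genes Id1, Id2 and Id3 rose in DN3-type cells. In this gate 7 of 14 recombination and pre-TCR genes (50%) and 5 of 6 E and Id genes (83.3%) were higher, and none was lower. The 7 include Sox13, which is also in the γδT17 list. Of all genes tested in the gate 10.3% were higher. In the whole sort 2 of 16 and 2 of 6 were higher, and the difference between gate and sort was not tested. Rag1 stood at 389 and 374 CPM in WT 1 and WT 2 and 571 and 612 CPM in KO 1 and KO 2 (log2 difference 0.65 ± 0.11 SE, edgeR adjusted p = 0.000903). Id3 stood at 54.6 and 55.4 CPM in WT 1 and WT 2 and 98.9 and 102 CPM in KO 1 and KO 2 (log2 difference 0.89 ± 0.095 SE, edgeR adjusted p = 2.38e-05). Rag2 (log2 0.60), Dclre1c (0.45) and Sox13 (1.14) were higher, as were Id2 (1.33), Id1 (3.22), Tcf4 (0.65) and Tcf12 (0.42, not without KO 1, WT 1 or WT 2). The commitment genes Tcf7 (-0.16), Bcl11b (-0.13) and Notch1 (0.26) were not called, although Tcf7 and Notch1 passed with the pool as a block (edgeR adjusted p = 0.0138 and 4.73e-05), and Gata3 (0.62) and Dtx1 (0.94) were higher. Ptcra and Il2ra chose the cells and were not tested.

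The γδT17 list was higher in 17 of 25 genes in DN3-type cells, with a median log2 difference of 2.02, and in 12 without WT 2. Maf stood at 8.22 and 5.75 CPM in WT 1 and WT 2 and 72.1 and 55.9 CPM in KO 1 and KO 2 (log2 difference 3.20 ± 0.14 SE, edgeR adjusted p = 5.88e-09). Scart1 stood at 17.2 and 19.1 CPM in WT 1 and WT 2 and 273 and 274 CPM in KO 1 and KO 2 (log2 difference 3.93 ± 0.12 SE, edgeR adjusted p = 1.7e-10). Cxcr6 had a log2 difference of 2.39 (edgeR adjusted p = 0.236) and was not called in this gate. With the pool as a block 23 members were higher and 1 lower, and Cxcr6 was among those called higher. That fit leaves few degrees of freedom in this gate, so its call of Cxcr6 is not taken as firmer. Type 1 and cytotoxic genes were higher in 15 of 23 and in 8 without WT 2, with Gzma at 231 and 253 CPM in WT 1 and WT 2 and 579.9 and 537 CPM in KO 1 and KO 2 (log2 difference 1.22 ± 0.11 SE, edgeR adjusted p = 3.93e-06). Chemokine receptor and egress genes were higher in 11 of 19, with Klf2 at 5.39 and 5.50 CPM in WT 1 and WT 2 and 94.4 and 87.0 CPM in KO 1 and KO 2 (log2 difference 4.07 ± 0.11 SE, edgeR adjusted p = 1.62e-10). In Gzma and Klf2 the KO libraries lay above WT and close to each other. The shares higher in this gate were 68% of the γδT17 list, 65.2% of the type 1 list and 57.9% of the egress list. Of all genes tested in the gate 10.3% were higher.

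S phase genes were lower in 14 of 25 (56%) and G2/M genes in 16 of 25 (64%) in DN3-type cells, and none was higher. Of all genes tested in these cells 6.46% were lower. The median log2 differences of -0.38 and -0.39 were smaller than in the whole sort. The counts moved with single libraries, from 7 without WT 1 to 17 without KO 2 for S phase and from 3 without KO 2 to 19 without KO 1 for G2/M; without KO 1 the S phase count was 9, and without WT 2 the G2/M count was 8. With the pool as a block 21 and 22 were lower, with equal numbers of cells 9 S phase genes, and with 1 Ptcra UMI in place of 2 as the limit 8 S phase and 9 G2/M genes. Mki67, a marker of cycling cells, had a log2 difference of -0.47 (edgeR adjusted p = 0.0136) and Top2a of -0.43 (0.0113).

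**Figure D4:**
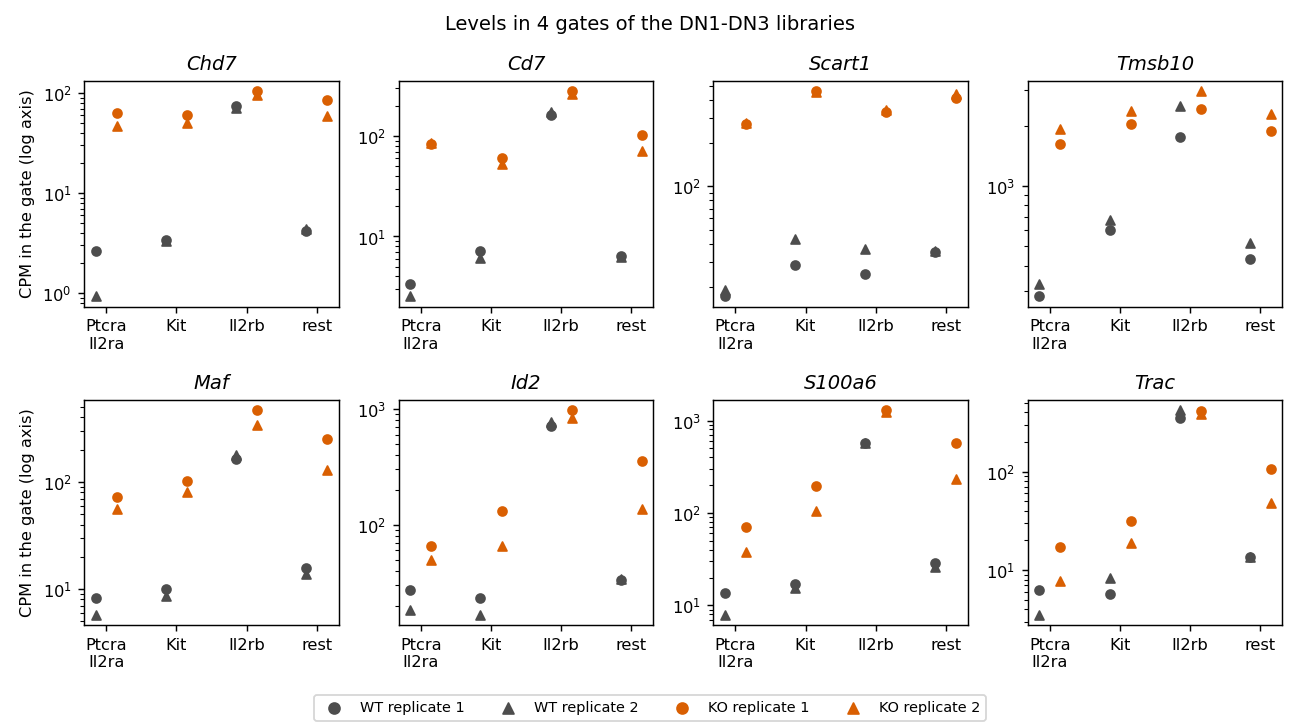
CPM (log axis) of 8 genes in 4 gates of the DN1-DN3 libraries: cells with Ptcra and Il2ra, other cells with Kit, other cells with Il2rb, and the rest; WT is grey, KO is orange, circles are replicate 1 and triangles replicate 2. Scart1 is higher in KO in each gate, whereas Id2, S100a6 and Trac are high in the Il2rb gate of both genotypes and differ most in the rest.

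The DN3-type gate needs 2 Ptcra UMIs in a cell, and cells outside it also carried DN3 markers. In the rest, outside the Kit and Il2rb gates as well, Il2ra stood at 497 and 353 CPM in WT 1 and WT 2. That compares with 709 and 627 CPM in the gate. In the rest of KO 1 and KO 2 it stood at 301 and 304 CPM. The gate and the remaining cells are thus not DN3 against other stages. The remaining cells, in neither the B gate nor the DN3-type gate, gave 1644 genes higher (12.1%) and 620 lower (4.55%) of 13627 tested in edgeR. This count rested heavily on single libraries, with 550 genes called without WT 1, 352 without WT 2, 2679 without KO 1 and 5368 without KO 2. The γδT17 list was higher in 23 of 28 genes, the type 1 list in 21 of 26 and the egress list in 18 of 21. These shares were 82.1%, 80.8% and 85.7%, beside 12.1% of all genes. S phase genes were called neither higher nor lower, although all 25 had a negative log2 difference. Of 25 G2/M genes, 3 were lower (12%, beside 4.55% of all genes).

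Within gates, the raised genes behaved in at least 2 ways. Kit is a marker of DN1 and DN2 cells, but the Kit gate also held Bcl11b at 1308 and 1196 CPM in WT 1 and WT 2. The rest held it at 1462 and 1265 CPM, so the Kit gate is not taken as DN1 and DN2 cells alone. In Kit-positive cells Scart1 was measured at 28.3 and 43.0 CPM in WT 1 and WT 2 and 458 and 456 CPM in KO 1 and KO 2. In Il2rb-positive cells Scart1 was measured at 24.7 and 36.8 CPM in WT 1 and WT 2 and 329.8 and 342 CPM in KO 1 and KO 2. The difference was thus of similar size in both gates, and KO 1 and KO 2 were nearly equal. S100a6 was measured at 573 and 569.8 CPM in WT 1 and WT 2 and 1307 and 1247 CPM in KO 1 and KO 2 in the Il2rb gate. Trac was measured there at 350.4 and 425 CPM in WT 1 and WT 2 and 414 and 382 CPM in KO 1 and KO 2, which put KO and WT side by side. In the rest, Trac stood at 13.7 and 13.7 CPM in WT 1 and WT 2 and 106 and 48.4 CPM in KO 1 and KO 2. Il17a reached 23.7 and 10.8 CPM in the Il2rb gate of KO 1 and KO 2 and 5.59 and 3.45 CPM in the rest of these libraries. These gate levels are descriptions, without a test.

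The makeup of the sort was compared by the share of cells per gate after thinning each cell to 2000 UMIs, which left out shallower cells and kept 6624 and 6901 WT and 6363 and 6939 KO cells. The Il2rb gate held 2.19% and 2.09% of cells in WT 1 and WT 2 and 15.1% and 8.53% in KO 1 and KO 2. The Kit gate held 5.66% and 4.59% in WT and 2.80% and 3.30% in KO. The Ptcra Il2ra gate held 3.58% and 4.69% in WT and 2.40% and 6.67% in KO. The Il2rb share was thus higher and the Kit share lower in both KO libraries, and the Ptcra Il2ra share overlapped between the groups. With 2 libraries against 2 the exact two-sided permutation test cannot go below p = 0.333, which was its value for the Il2rb and Kit gates. Without thinning, the Il2rb gate held 3.25% and 3.28% in WT and 25.6% and 13.0% in KO. Among the DN3-type cells, 0.613% and 0.345% of thinned WT cells and 1.06% and 1.32% of thinned KO cells had an Il2rb UMI. Il2rb stood in this gate at 2.43 and 0.989 CPM in WT 1 and WT 2 and 9.03 and 7.46 CPM in KO 1 and KO 2. Whether these cells lack Il2rb was not tested.

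**Figure D5:**
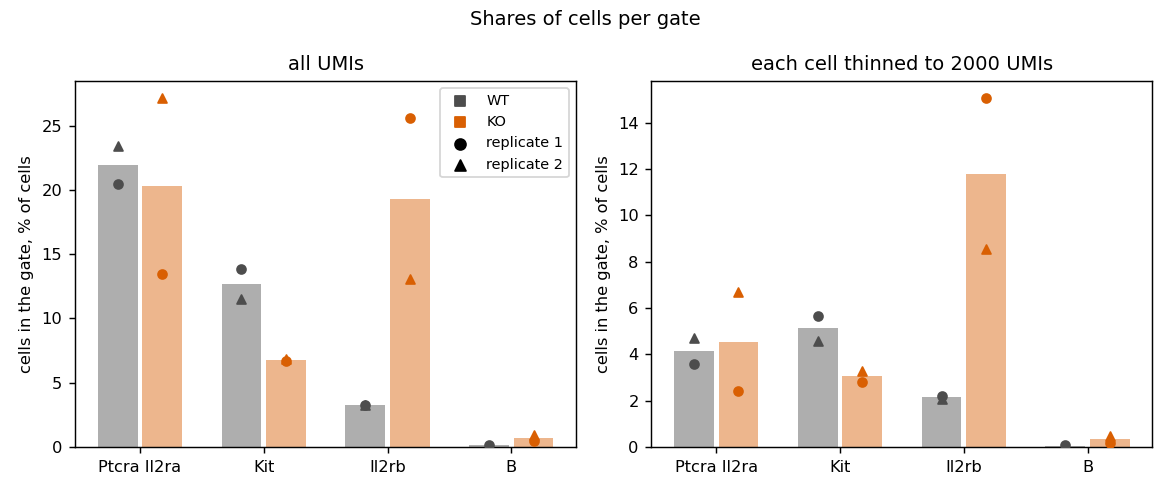
Share of cells (%) in 4 gates of the DN1-DN3 libraries, counted with all UMIs and after thinning each cell to 2000 UMIs; bars are means of 2 libraries, circles replicate 1 and triangles replicate 2, WT grey and KO orange. The Il2rb share is higher in both KO libraries, and the Ptcra Il2ra shares of KO 1 and KO 2 lie on either side of the WT libraries.

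The series also holds thymic γδ T cells of both genotypes, and the interaction contrast asked which genes differed between KO and WT by another amount in DN1-DN3 cells than in those. Of 14924 genes tested, 1945 (13.0%) had the more positive difference in DN1-DN3 cells and 1318 (8.83%) the more negative one in edgeR, and without TMM scaling, which moved the median of all genes from 0.014 to 0.123, these counts were 2301 and 977, or 70.2% more positive in place of 59.6%. They fell to 2149 genes in all without WT 1 and to 2030 without WT 2. The S phase and G2/M genes stood apart by direction, with 20 and 24 of 25 more positive in DN1-DN3 cells. Those shares were 80% and 96%, beside 13.0% of all genes. All 25 genes of each list had a negative difference in DN1-DN3 cells. The more positive ones thus fell less in KO there than in γδ T cells, and did not rise. In the γδT17 list 5 were more positive and 4 more negative of 29 (17.2% and 13.8%, beside 13.0% and 8.83% of all genes). Klf2 had a log2 difference of 2.92 in DN1-DN3 cells and of -0.75 in γδ T cells (interaction 3.67 ± 0.26 SE, edgeR adjusted p = 4.33e-05). Tmsb10 had 2.07 and -0.74 (interaction 2.81 ± 0.22 SE, edgeR adjusted p = 5.68e-05). Id3 had 0.49 and -1.70 (interaction 2.19 ± 0.34 SE, edgeR adjusted p = 0.00206). The differences of these genes had opposite signs in the 2 populations, although that of Id3 in DN1-DN3 cells passed no threshold, while for Scart1, with 3.59 and 4.04, and Cacnb2, with -3.31 and -3.17, the interaction passed no threshold (edgeR adjusted p = 0.127 and 0.859).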

How the data were processed

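Droplet 3' RNA sequencing was run on DN1-DN3 thymocytes and on γδ T cells from thymus and spleen, each with a WT and a GFI1 KO group. The deposited files hold whole-number UMI counts per gene and cell, which the authors made with Cell Ranger 8.0.1 (build GRCm39 per the submitters' processing notes) and split by hashtag with hashsolo into 12 libraries, 4 of them DN1-DN3; the annotation release is not given in the sources used here. Hashtag doublets were left to that step, and an alternative left out the 5% of cells with the most UMIs. The cell filter followed the methods of the study. As there, 92 Rpl and Rps, 9430 Gm-numbered and 13 mitochondrial genes were left out, and totals were taken over the remaining genes. The authors' rank test over cells was replaced because cells are not replicates.

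Counts were summed per library (Python 3.11.15, numpy 2.4.6, pandas 2.3.3, scipy 1.17.1, matplotlib 3.10.9) and tested with the quasi-likelihood F test of edgeR 4.0.16 in R 4.3.3 with limma 3.58.1: filterByExpr, TMM scaling, robust dispersions, two-sided, Benjamini-Hochberg adjustment over all genes tested, called below 0.05. One fit held all 12 libraries. Separate fits held the DN3-type cells and the remaining non-B cells of the 4 DN1-DN3 libraries. A cell with 2 or more of 6 B-lineage genes, among them Cd79a, Cd79b, Ms4a1, Ebf1 and Pax5, was in the B gate; gates for Ptcra with Il2ra, Kit and Il2rb were applied in that order to the other cells. The test was tested on simulated data first. CPM values are counts per 1000000 UMIs of a library or, within a gate, of its cells in that library. Depth was between 46658394 and 62299725 UMIs per DN1-DN3 library. Between DN1-DN3 libraries of different pools 7 to 17 barcodes were shared, and none within a pool.

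The labels give WT and KO cells of a pool the same number, and the sources state that they were mixed, so the numbers pair the libraries; the pool 1 minus pool 2 differences of WT and KO correlated with r = 0.172 over 14924 genes. Because the methods use no such term, the pool entered as a block only in an alternative. Other alternatives were DESeq2 1.42.0, RLE size factors, total counts, no filter, the libraries of the comparison alone, all genes kept, thinning, equal cell numbers, other gates and leaving out each library.

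The members and the 34 gene lists (686 genes, 683 in the files) were chosen with earlier results of these data known. Named genes were the 12 largest rises and falls among called genes that reached a mean of 20 CPM and moved alike in pools 1 and 2 (6 each in DN3-type cells, 4 each for the interaction), without immunoglobulin, Xist and Y-linked genes, and lead genes and up to 4 genes with the lowest adjusted p of each list. Not all of these are printed, since some items are not reported here, and further list members were named after their values were seen.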

Additional observations from a re-analysis of the deposited data

Results flagged for a closer look

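The difference between KO and WT was not the same in DN1-DN3 cells and in thymic γδ T cells for 3263 genes by the interaction contrast in edgeR (adjusted p below 0.05). Under the rule for named genes, the 4 most positive were the chemokine Ccl5 (log2 interaction 4.26, from 2.19 in DN1-DN3 cells), the sialyltransferase St6gal1 (3.92), the adhesion receptor Cd2 (3.92) and the γδT17 scavenger receptor Scart2 (3.79). In γδ T cells Ccl5 stood at 53.4 and 52.6 CPM in WT and at 8.62 and 14.3 CPM in KO, and Scart2 at 341 and 274 CPM in WT and at 84.3 and 56.4 CPM in KO. St6gal1 had log2 differences of 2.47 in DN1-DN3 cells and -1.45 in γδ T cells, Cd2 of 2.82 and -1.10, and Scart2 of 1.78 and -2.01.

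The 4 most negative were the phosphodiesterase Pde5a (log2 interaction -3.59), the repressor Zeb2 (-3.25), Cdkn1a (-3.13) and Frmd4a (-3.08). Zeb2 stood at 52.6 and 44.4 CPM in WT and at 293 and 210 CPM in KO in γδ T cells, and its log2 difference was 2.49 there and -0.75 in DN1-DN3 cells. Pde5a had 2.48 and -1.12 in the same order. Cdkn1a was low in γδ T cells, at 1.29 and 2.26 CPM in WT and at 3.35 and 3.35 CPM in KO, where its log2 difference was 1.03 and that of DN1-DN3 cells -2.10. Frmd4a had a log2 difference of 3.17 in γδ T cells, whereas in DN1-DN3 cells it was 0.09 and not called. All 8 genes kept the sign of the interaction in each alternative run and passed its threshold in the runs that kept all libraries of the comparison. No run left out a library of γδ T cells.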

How the results depend on the processing

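With 2 libraries a group, most counts of called genes moved with single libraries. For the whole sort, 3427 genes were called, between 1679 and 5041 when 1 library was left out, 2077 with the 4 DN1-DN3 libraries fitted alone, 4280 with the pool as a block and between 3055 and 3729 under the other alternatives. Fitted alone, these 4 libraries left 25 of the genes followed without their call, among them Bcl11b, Gata3, Mcm4, Slpi, Sox13, Trgc1 and Trgc2, each of which also lost it without at least 1 library. In DN3-type cells 2043 genes were called, 1364 by DESeq2, between 1486 and 1958 without 1 library and 3650 with the pool as a block, a fit that leaves few degrees of freedom. In the remaining cells 2264 became 352 to 5368 without 1 library and 2757 with the block. For the interaction 3263 became 2030 to 3948 without 1 library and 3774 with the block. Where 1 library is left out, the lone library of its group is assumed to vary like the other groups. Only DN1-DN3 libraries were left out, so the interaction was not checked without a library of γδ T cells. Of 294 genes of the lists or named by rule that were called in the whole sort, 128 lost the call without at least 1 of the 4 libraries. Beside the calls changed by the block in the text, Mki67 and Top2a gained a call with it in the whole sort and the glucose transporter Slc2a1 lost one, and it changed no other call of a gene named there.

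The share of cells per gate, as KO minus WT in percentage points, depended on depth: without thinning it went from 0.402 to -1.63 for the Ptcra Il2ra gate, from -2.08 to -5.92 for the Kit gate, from 9.66 to 16.1 for the Il2rb gate and from 0.272 to 0.561 for the B gate, and without 1 library the Ptcra Il2ra value lay between -1.73 and 2.54. Without the cells of the B gate the log2 difference of Slpi was -0.065 and that of Mef2c -0.43. Several genes that were not called had log2 differences near 0 whose sign changed. Bst2 had -0.0021 with DESeq2 and with RLE size factors, -0.000186 after thinning, -0.012 without the 5% of cells with the most UMIs and -0.017 without the B gate, Mef2c -0.036 without those 5%, and Csf1r -0.086 with the block. Without 1 library, the log2 difference ranged from -0.19 to 0.12 for Bax, from -0.012 to 0.23 for Bcl2l11, from -0.14 to 0.14 for Bst2, from -0.51 to 0.10 for Cd4, from -0.17 to 0.46 for Cd8a, from -1.50 to 0.72 for Csf1r, from -0.59 to 0.19 for Lmo2, from -0.077 to 0.074 for Mdm2, from -0.20 to 0.41 for Mef2c, from -0.30 to 0.052 for Notch1, from -0.20 to 0.13 for Psmb8 and from -0.36 to 0.59 for Ptcra. The cause of these changes was not tested.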
